A study of Mus musculus with 6 samples.

Results

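The miR-106b-25 cluster is a group of 3 microRNA (miRNA) hairpins, miR-106b, miR-93 and miR-25, cut from 1 transcript. It is described here with miR-92a, which has the same seed as miR-25 but is made from other loci. The members were chosen by name, as the assays labelled mmu-miR-25, mmu-miR-93, mmu-miR-106b and mmu-miR-92a without a star strand, 4 of the 709 assays in the array table. All 4 had values in every sample and were therefore among the 95 assays that could be compared. The assays were SYBR Green real-time PCR reactions on RNA from OSCAR+CTR+ osteoclasts, myeloid cells that resorb bone, sorted magnetically from mouse bone marrow. Osteoclast miRNAs had been knocked down in the mice of 3 samples (OCmiR-KD, called knockdown) and were left intact in the control mice of the other 3 (OCmiR-Intact, called intact). Both groups share the cell type, the sort and the PCR chemistry. The sources used here do not state the allele or agent behind the knockdown, nor the strain or age of the mice. The design text speaks of pooled RNA of 3 mice per group, so the 3 samples of a group may be repeat measurements of a pool. In that case the spread behind each p-value is technical; nothing in the labels settles it. OSCAR and CTR are proteins, which an miRNA array does not measure.

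The cluster lies in an intron of Mcm7, a gene of the replicative helicase, and is a paralogue of the miR-17 and miR-106a clusters. An miRNA finds its target messenger RNAs mainly through its seed, bases 2 to 8, so miRNAs with 1 seed share many targets. Through the seed of miR-17, miR-93 and miR-106b are known to repress Cdkn1a, an inhibitor of the cell cycle. miR-25 and miR-92a are known to repress Bcl2l11, which promotes cell death. In monocytes, the precursors of osteoclasts, miR-17, miR-20a and miR-106a are known to repress Runx1, which drives the M-CSF receptor.

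The sequences below show which members can share targets. They were read from the array table and each equals a RefSeq mature miRNA of mouse build GRCm38.p6. Capitals mark the seed. The first pair shares the miR-25 seed, and the next pair shares the miR-17 seed. The last 3 are among the relatives from the miR-17 cluster that had no value.
miR-25: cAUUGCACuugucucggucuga
miR-92a: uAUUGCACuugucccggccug
miR-93: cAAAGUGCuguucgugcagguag
miR-106b: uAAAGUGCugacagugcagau
miR-17: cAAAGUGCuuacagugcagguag
miR-20a: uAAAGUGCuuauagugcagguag
miR-19b: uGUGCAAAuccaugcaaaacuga

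The hairpins of the cluster are shown because they give the position of each measured strand. Capitals mark the strands that had values. All 3 lie on the minus strand of chromosome 5 within the span of Mcm7 (chr5:138164583-138172111), in the order miR-106b, miR-93, miR-25 along the transcript. They cover 498 bases from the first to the last base, with gaps of 126 and 118 bases. The guides of miR-106b and miR-93 come from the 5′ arm, and that of miR-25 comes from the 3′ arm. The miR-106b hairpin is the only one of these with values for both strands, the guide and the star strand miR-106b*.
Mir106b, chr5:138165737-138165818: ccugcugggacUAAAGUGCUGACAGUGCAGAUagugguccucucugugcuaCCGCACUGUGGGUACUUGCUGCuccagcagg
Mir93, chr5:138165523-138165610: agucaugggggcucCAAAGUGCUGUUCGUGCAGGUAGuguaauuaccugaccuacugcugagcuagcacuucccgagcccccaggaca
Mir25, chr5:138165321-138165404: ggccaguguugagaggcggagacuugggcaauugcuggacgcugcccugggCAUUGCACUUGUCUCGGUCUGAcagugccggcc

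The mature miR-92a has 2 loci, Mir92-1 on chromosome 14, in the miR-17 cluster, and Mir92-2 on chromosome X, in the miR-106a cluster. The assay measures a strand that is the same from both. Mature miR-25 and miR-92a differ by 4 edits (bases substituted, inserted or deleted). The nearest assay to miR-92a was miR-92b, at 3 edits, and the nearest to miR-93 were miR-17 and miR-20b, each at 3 edits. miR-106b lay at least 5 edits from every other assay. No pair of members lay closer than miR-25 and miR-92a, and whether an assay also amplified a relative was not tested.

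The relatives were for the most part without a value. Of the 21 assays on the array for strands of the miR-17, miR-106a and miR-106b-25 clusters, 5 had values in all 6 samples and 16 were Null in all 6. The 5 are the 4 members and miR-106b*. miR-17, miR-20a and miR-19b were Null in every intact and every knockdown sample. The same holds for miR-18a, miR-19a, miR-106a, miR-18b, miR-20b and miR-363. Among star strands miR-17*, miR-18a*, miR-19a*, miR-20a*, miR-20b*, miR-92a* and miR-93* were Null. No assay of the table was Null in only some samples, and 614 of the 709 were Null in all. The rule behind a Null is not stated in those sources, so a Null does not show that the miRNA was absent.

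Seen by seed, the array held 6 assays with the miR-25 seed, of which miR-25 and miR-92a had values and miR-32, miR-92b, miR-363 and miR-367 were Null. It held 6 with the miR-17 seed, of which miR-93 and miR-106b had values and miR-17, miR-20a, miR-20b and miR-106a were Null. Both assays with the miR-19 seed were Null. Each of the seeds with values was thus represented by 2 miRNAs. miR-92a was the only strand with a value from the miR-17 and miR-106a loci.

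A level here is minus delta Ct, on a log2 scale against U6, the small nuclear RNA that served as reference. Ct is the PCR cycle at which fluorescence crosses a threshold. A level of 0 means that the assay crossed together with U6, and 1 unit stands for about 2 times as much template if each cycle doubles it. Primers differ between assays, so ordering the members by level orders readings and not abundance. One property of the deposited values limits every comparison of groups. Taken as linear ratios to plate 1 U6, the 3 knockdown values of each of the 4 members average 1 to within 0.001, as they do in 88 of the 95 assays with values. In intact samples this holds for 0 of the 95. The knockdown means of the members are therefore no measurements of their own, and "lower" below describes the deposited values without showing that the miRNA was lost. The 3 values of such a group are also not independent, as the tests assume.

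miR-106b (mmu-miR-106b), the first hairpin of the transcript, had levels of 3.73, 3.49 and 3.52 in intact samples 1 to 3. Its levels in knockdown samples 1 to 3 were -1.34, -0.79 and 1.02. The intact values lay within 0.241 log2 units of each other, while knockdown sample 3 stood above the other 2 and the groups did not overlap. Intact samples averaged 3.58 ± 0.13 and knockdown samples -0.37 ± 1.23 (SD, n = 3 each). The difference was -3.95 log2 units (SE 0.68, 95% interval -5.54 to -2.36, limma adjusted p = 0.000886), a 15.4-fold lower deposited level. Without knockdown sample 3 the difference was -4.64. The ratio of the highest to the lowest knockdown sample was 5.13, against 1.18 among intact samples.

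miR-93 (mmu-miR-93), the middle hairpin, varied most among intact samples. Its level was 3.26 in intact sample 1, 0.62 in sample 2 and 3.89 in sample 3. In knockdown samples 1 to 3 it was -0.45, -0.88 and 0.78. Intact sample 2 lay below knockdown sample 3, so the groups overlapped. Intact samples averaged 2.59 ± 1.74 and knockdown samples -0.18 ± 0.86 (SD, n = 3 each). The difference of -2.77 log2 units (SE 0.93, 95% interval -4.93 to -0.62) passed the threshold in limma (adjusted p = 0.0229). The call was lost without intact sample 1, intact sample 3, knockdown sample 1 or knockdown sample 2, with limma adjusted p between 0.0659 and 0.0971. Without intact sample 2 the difference was -3.76, and without intact sample 3 it was -2.12. Over all alternatives tested the adjusted p of miR-93 ran from 0.00244 to 0.502.

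miR-25 (mmu-miR-25), the last hairpin, had the highest reading of the members. Its level was 7.86 in intact sample 1, 7.15 in sample 2 and 5.23 in sample 3. The knockdown levels were -0.32, 0.26 and 0.01. Intact sample 3 was the low one, and the lowest intact value still lay 4.98 log2 units above the highest knockdown value. Intact samples averaged 6.75 ± 1.36 and knockdown samples -0.02 ± 0.29 (SD, n = 3 each). This is a difference of -6.77 log2 units (SE 0.73, 95% interval -8.47 to -5.07, limma adjusted p = 7.3e-05) and a 109-fold lower deposited level. Without intact sample 3 the difference was -7.53. Intact miR-25 ranked 15 among the 95 assays by level, where miR-92a ranked 63, miR-106b ranked 64 and miR-93 ranked 77.

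miR-92a (mmu-miR-92a), the seed relative from other loci, had the smallest spread of the members in knockdown samples, while miR-106b had the smallest in intact samples. The levels of miR-92a were 3.45, 3.59 and 3.92 in intact and -0.02, 0.09 and -0.07 in knockdown samples 1 to 3. Its knockdown SD of 0.079 was the second smallest of the 95 assays, whose median was 0.798. The groups were 3.37 log2 units apart at their nearest values. Its group means were 3.65 ± 0.24 for intact and -0.001 ± 0.079 for knockdown (SD, n = 3 each), which gives a difference of -3.66 log2 units (SE 0.45, 95% interval -4.71 to -2.60, limma adjusted p = 0.000152). The deposited level was 12.6-fold lower.

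**Figure D1:**
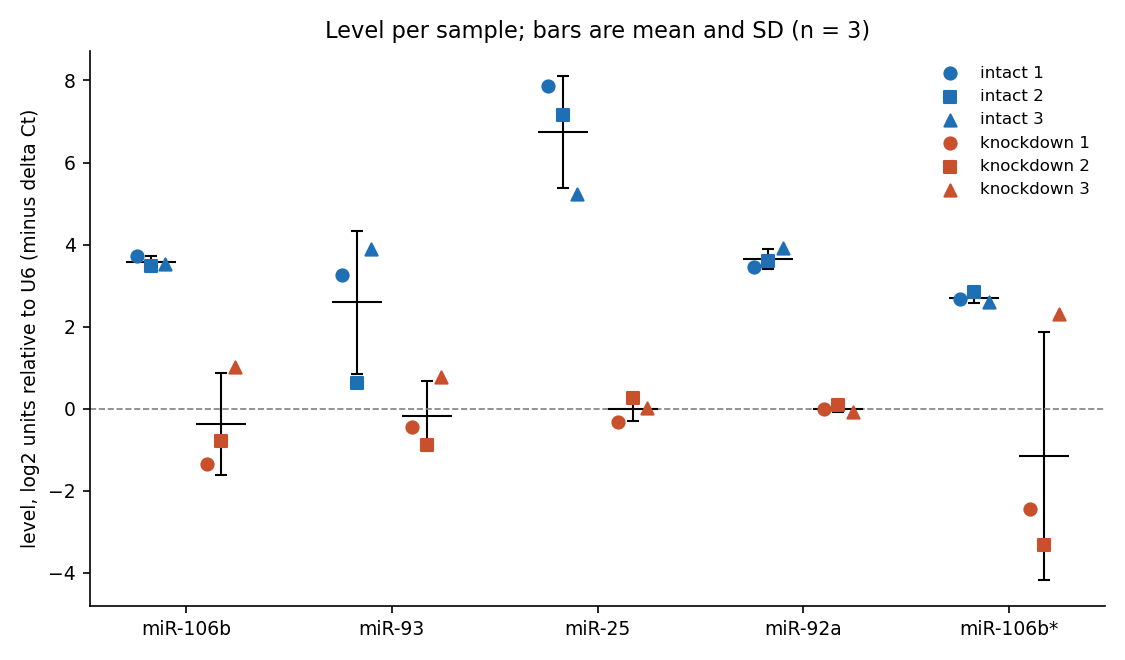
Level of each member and of miR-106b* per sample, in log2 units relative to U6, with intact samples in blue, knockdown samples in red, 1 marker shape per sample number, and bars for mean and SD (n = 3). Intact miR-25 lies highest, at 5.23 to 7.86, and only miR-93 has an intact sample (0.62) below a knockdown sample (0.78).

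All 4 members passed the threshold with lower knockdown values. So did 80 of the 95 assays tested, 84.2%, while 0 passed with higher values in limma (also 0 at an unadjusted p under 0.05), so the members' count is near the background. The median difference was -3.80 over the members and -4.54 over all 95 assays. In 78 of the 80 called assays the groups did not overlap, and miR-93 is 1 of the other 2. In the authors' deposited table the folds of intact over knockdown were 109.1 for miR-25, 15.4 for miR-106b, 12.6 for miR-92a and 6.82 for miR-93.

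The raw Ct values give the same order of differences when no reference is subtracted. This order could not change, since all 4 members are on plate 1 and share 1 U6 value per sample. The linear knockdown mean of 1 holds between these Ct values and U6, so they are no independent check. miR-25 crossed the threshold at 21.4, 22.4 and 25.1 cycles in intact and at 31.4, 30.3 and 29.3 cycles in knockdown samples. For miR-92a these were 25.83, 25.98 and 26.43 cycles in intact and 31.1, 30.5 and 29.4 cycles in knockdown samples. U6 of the same plate stood at 29.3, 29.6 and 30.3 cycles in intact and at 31.1, 30.6 and 29.3 cycles in knockdown samples. The knockdown Ct values of miR-25 and miR-92a thus followed U6 to within 0.324 and 0.085 cycles, while miR-93 and miR-106b departed from it by up to 0.879 and 1.34 cycles. On Ct alone, the log2 differences were -7.38 for miR-25, -4.56 for miR-106b, -4.26 for miR-92a and -3.38 for miR-93, and all 4 passed in limma.

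**Figure D2:**
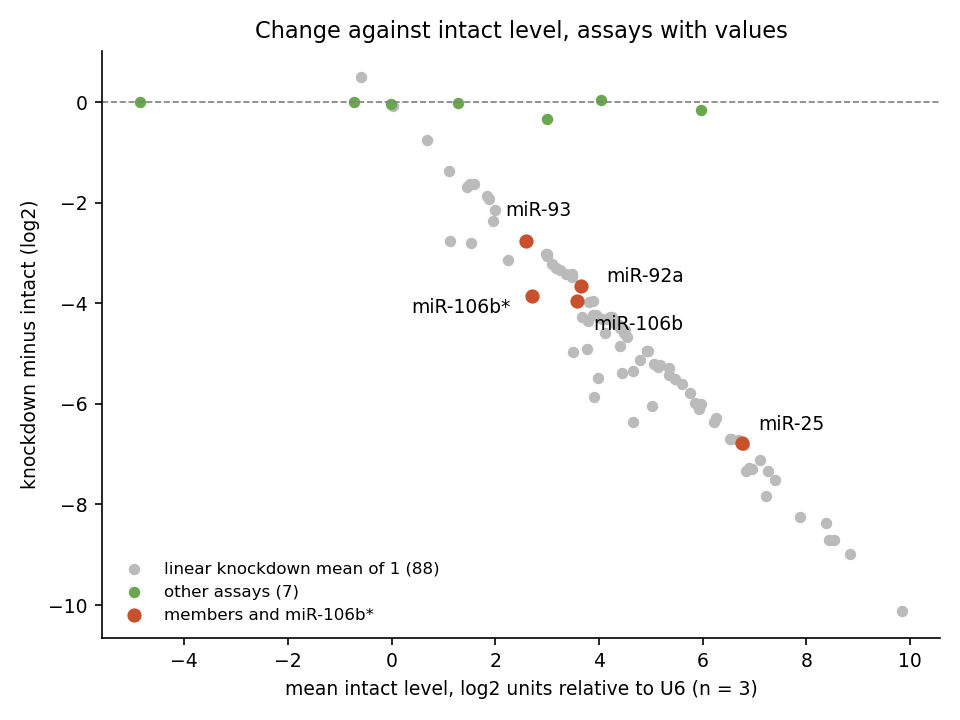
Difference of knockdown minus intact (log2) against the mean intact level for the 95 assays with values, in grey where the linear knockdown mean is 1 (88 assays), in green for the other 7, and in red for the members and miR-106b*. The red points lie along the grey band, with miR-25 at -6.77 and the others between -2.77 and -3.95.

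The direction of the members depended on the reference. When each sample was centred on the mean Ct of the 95 assays, the mean change removed was -5.09 log2 units on the raw Ct scale. The median difference over all assays was -0.059 after centring, against -4.54 relative to U6. miR-25 then lay below the mean change, at -2.29 (limma adjusted p = 0.037, range over all alternatives 2.6e-06 to 0.154). The other members lay above it without passing, miR-93 at 1.71, miR-92a at 0.83 and miR-106b at 0.53. With linear knockdown means fixed at 1, a centred change mostly restates how high an assay read in intact samples. Ranked from the lowest centred change, miR-25 stood at 16, miR-106b at 63, miR-92a at 64 and miR-93 at 77. Their ranks by intact level were 15, 64, 63 and 77. The signs and p-values after centring therefore do not show that miR-25 responded differently. After quantile normalization miR-25 stood at -1.60, miR-93 at 1.11, miR-92a at 0.54 and miR-106b at 0.067, and 0 of the 4 passed in limma, with 1 of 4, miR-25, at an unadjusted p under 0.05. The count of 4 members called lower thus belongs to the U6 and raw Ct scales. On the U6 scale it was 3 in each of the 4 cases named for miR-93, where 1 sample was left out.

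**Figure D3:**
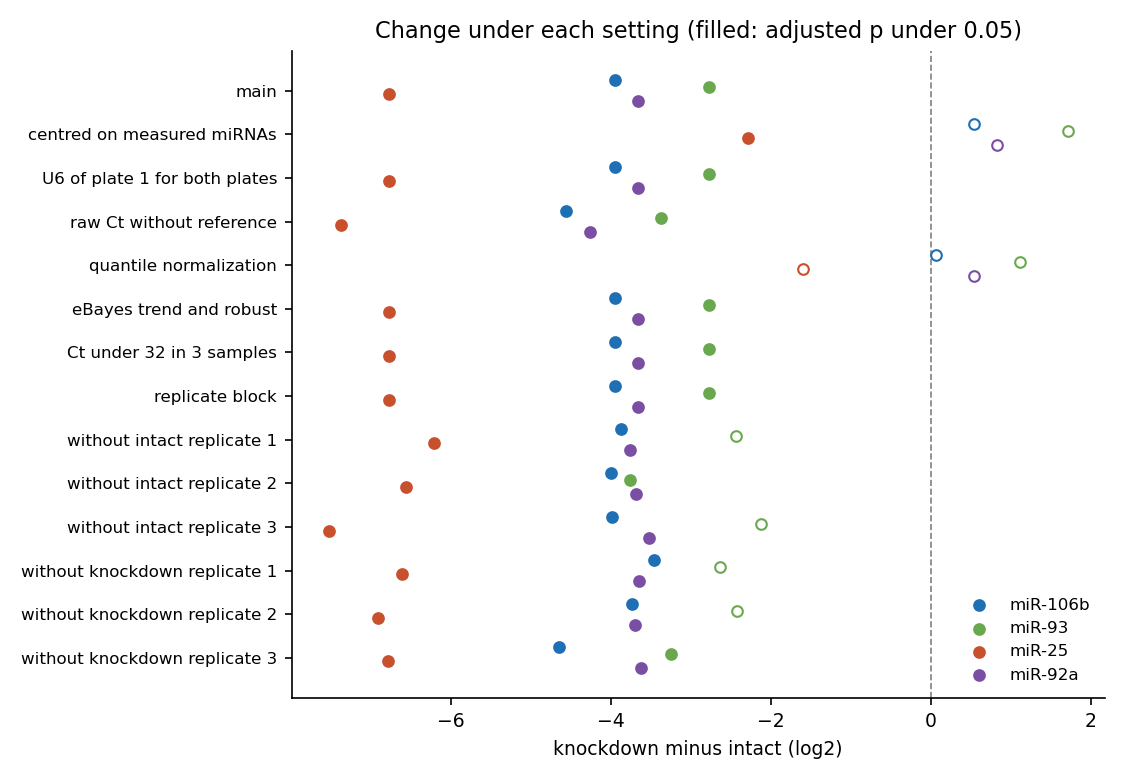
Difference of knockdown minus intact (log2) for each member under the main setting and each alternative, with filled points where the limma adjusted p is under 0.05. miR-25 stays furthest left in every line, and the other members pass to the right of 0 under centring on the measured miRNAs and under quantile normalization.

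Whether members of the transcript moved alike was asked through the difference of 2 members within each sample, which is free of the reference. Over the 6 pairs, p-values are from exact two-sided permutation tests, whose smallest value with 3 against 3 is 0.1, and were adjusted over the 6. With the linear knockdown means fixed at 1, a gap between 2 falls mostly restates the gap between 2 intact readings. Since primers differ between assays, such a gap does not show that 2 miRNAs responded differently.

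miR-25 stood apart from both other hairpins of its transcript in intact samples. It exceeded miR-106b by 4.13, 3.67 and 1.72 log2 units in intact samples 1 to 3. In knockdown samples the same difference was 1.02, 1.05 and -1.01. The groups did not overlap, and the deposited fall of miR-25 was larger by 2.82 log2 units, or 7.06 times (exact permutation p = 0.1, adjusted p = 0.2). Against miR-93 the differences were 4.60, 6.54 and 1.34 in intact and 0.12, 1.13 and -0.77 in knockdown samples. Here the deposited fall of miR-25 was larger by 4.00 log2 units, or 16.0 times (exact permutation p = 0.1, adjusted p = 0.2). Leaving out 1 sample at a time moved this gap between 2.81 and 5.41, and that to miR-106b between 2.14 and 3.55. In both pairs intact sample 3, where miR-25 was lowest, lay nearest to the knockdown samples.

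The seed relatives miR-25 and miR-92a also differed in their intact readings. miR-25 exceeded miR-92a by 4.41, 3.56 and 1.32 log2 units in intact samples 1 to 3 and by -0.31, 0.17 and 0.08 in knockdown samples. The deposited fall of miR-25 was larger by 3.11 log2 units, or 8.65 times (exact permutation p = 0.1, adjusted p = 0.2). The groups stayed apart. The mean difference was 3.095 in intact and -0.018 in knockdown samples. Both linear knockdown means are fixed at 1, so the gap mostly restates the intact readings. The gap was 2.46 without intact sample 1 and 4.00 without intact sample 3, the ends of its range over left-out samples. The order of the 3 intact samples ran opposite in the pair: miR-25 was highest in sample 1 and lowest in sample 3, and miR-92a was lowest in sample 1 and highest in sample 3.

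The pair with the miR-17 seed, miR-93 and miR-106b, overlapped. miR-93 minus miR-106b was -0.47, -2.87 and 0.38 in intact and 0.90, -0.09 and -0.24 in knockdown samples. The change of miR-93 minus that of miR-106b was 1.18 log2 units (exact permutation p = 0.4, adjusted p = 0.6), and 0.24 without intact sample 2. Both had their highest knockdown value in sample 3, as did 40 of the 95 assays. miR-25 and miR-92a had theirs in sample 2.

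miR-92a also overlapped with both members of that seed. The change of miR-93 minus that of miR-92a was 0.89 log2 units (exact permutation p = 0.6, adjusted p = 0.72), and -0.071 without intact sample 2. The change of miR-106b minus that of miR-92a was -0.29 (exact permutation p = 0.8, adjusted p = 0.8). This last sign turned to 0.086 when linear values were averaged in place of log2 values and to 0.18 without knockdown sample 1. The members miR-106b, miR-92a and miR-93 thus had no order of change that held beyond their spread, which does not show that they changed alike.

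**Figure D4:**
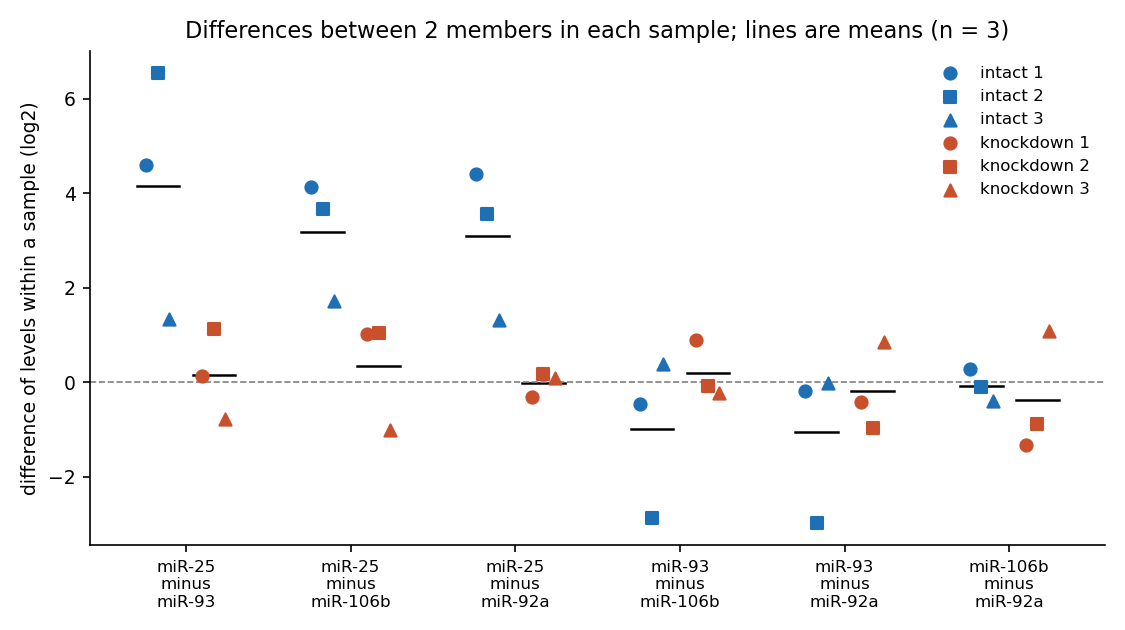
Difference of the levels of 2 members within each sample (log2) for the 6 pairs, intact in blue and knockdown in red, with lines at the group means (n = 3). In the 3 pairs with miR-25 all intact samples lie above all knockdown samples, and in the other 3 pairs the groups overlap.

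miR-106b* shares its hairpin with miR-106b and is no member, since star strands were left out. It was measured on plate 2, and its levels relative to the U6 of that plate were 2.67, 2.84 and 2.61 in intact samples. In knockdown samples 1 to 3 they were -2.45, -3.33 and 2.30. Like the guide, the star strand was even among intact samples and high in knockdown sample 3, where it came within 0.310 log2 units of the lowest intact value. Its difference was -3.87 log2 units (SE 1.35, limma adjusted p = 0.0271), beside -3.95 for the guide. Without knockdown sample 3 it was -5.59, and the call was lost when any other single sample was left out (limma adjusted p up to 0.0931). Its linear knockdown mean is also 1 relative to U6 of plate 1. When that U6 was used for both plates the difference was -4.11. The groups then lay further apart, with linear values of 2.67 in knockdown sample 3 and 6.48 in intact sample 1, the lowest intact one.

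The assays most like each member were found by the root mean square difference over the 6 samples, after each assay's own mean was subtracted. For miR-92a these were miR-186 at 0.178 log2 units, miR-532-5p at 0.427 and miR-185 at 0.442. For miR-106b they were let-7d at 0.573, miR-22 at 0.615 and miR-381 at 0.638. None of the nearest 3 of any member was another member. For miR-25 they were miR-183 at 0.643, miR-214 at 0.708 and let-7g at 0.722, and for miR-93 they were miR-206 at 0.614, miR-27b at 0.767 and miR-98 at 0.886. miR-206, miR-27b and miR-98 share the low value in intact sample 2, at -0.32, 2.03 and 1.28. Knockdown samples 2 and 3 hold the same value in miR-186 (-0.028), in miR-185 (0.133) and in miR-183 (-0.222). The reason for these repeats was not tested. Within the cluster, miR-106b ranked 13 by likeness to miR-93, and miR-106b* ranked 38 by likeness to miR-106b. miR-92a ranked 54 by likeness to its seed relative miR-25. With linear knockdown means fixed at 1, this likeness depends in good part on how high each assay read in intact samples. The ranks therefore do not show whether related miRNAs were controlled alike.

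Of 5 miRNA markers of the myeloid lineage, to which osteoclasts belong, 3 were measured, at intact levels of 2.20 to 5.83, with miR-142-3p and miR-146a Null. Markers of other cells had values in the same samples. All 4 stromal markers (3.40 to 8.08), 4 of 6 epithelial (3.32 to 10.2), 3 of 3 erythroid (-1.06 to 3.56) and 2 of 4 lymphoid markers (1.07 to 4.48) were measured. Of these 13 assays of other cells, 12 also passed with lower knockdown values, beside 80 of all 95 assays (84.2%). All 3 measured myeloid markers passed with lower values as well. The part of other cells in the members' values was not tested. The stromal marker miR-199a-3p has the same group means as miR-24, which is no listed marker (4.93 intact, -0.026 knockdown). It may therefore not be a separate measurement. All the measured markers have a linear knockdown mean of 1, so their knockdown values do not show a loss. Fewer cells of a type and less RNA per cell also cannot be told apart in such samples.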

How the data were processed

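Per the labels' protocols, Trizol RNA went through QuantiMir reverse transcription and 40 cycles of real-time PCR on a ViiA7 instrument. The authors deposited Ct values, treated here as a score in cycles, log2-scale delta Ct values relative to U6, and other values, the folds of intact over knockdown, per the file headers. Ct minus delta Ct was checked to be 1 constant per sample and plate. The sources used here do not state the Null rule or the PCR efficiency. IDs of plate row E, turned into numbers, were restored. Levels of the 95 assays with values in all 6 samples were compared with limma 3.58.1 in R 4.3.3. Settings were eBayes without trend, two-sided p-values, Benjamini-Hochberg over the 95 and a threshold of 0.05. The fit was tested on simulated data with independent samples. Those data lack the fixed linear knockdown means, so that test does not cover their effect on the p-values. Pair differences used scipy 1.17.1. A PCR array has no read depth, and the number of samples limits the precision. Members and lists were chosen with earlier results of these data known. Named assays are the members, the strands of the related clusters, and the 3 assays most like each member. Alternatives were the reference, quantile normalization, trended and robust eBayes, a Ct limit of 32, the replicate number as a block, leaving out each sample, and, added after the data were seen, linear means.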

Additional observations from a re-analysis of the deposited data

How the results depend on the processing

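The 4 members kept a lower knockdown level, past the threshold, under raw Ct, trended and robust eBayes, and the Ct limit of 32. Raw Ct is no independent setting here, since the linear mean of 1 ties the members' knockdown Ct values to U6. Using U6 of plate 1 for both plates cannot change the members' differences, since all 4 are on plate 1. Centring on the measured miRNAs left 1 member lower and turned miR-93 to 1.71, miR-106b to 0.53 and miR-92a to 0.83. With linear knockdown means fixed at 1, these signs mostly restate the intact readings. Quantile normalization left 0 (1 of 4 at a lower value, miR-25 at -1.60), with miR-93 at 1.11, miR-106b at 0.067 and miR-92a at 0.54. Over all assays, 80 lower and 0 higher calls became 19 and 19 after centring and 5 and 8 after quantile normalization. Leaving out 1 sample gave differences from -7.53 to -6.21 for miR-25, -3.76 to -2.12 for miR-93, -4.64 to -3.46 for miR-106b and -3.76 to -3.52 for miR-92a, with 3 to 4 members called. The change of miR-93 against miR-92a then ran from -0.071 to 1.40, and that of miR-106b against miR-92a from -1.02 to 0.18, with 0.086 under linear means. Same-numbered samples correlated at 0.025, 0.101 and 0.081 in their deviations over the 95 assays. Samples of unlike number correlated at -0.085 to 0.027. All of these were small, so the numbers were not taken as pairs. With the replicate number as a block, 4 members and 82 assays were called lower.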
